A study of Bos taurus with 16 samples.

Results

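The urea cycle genes described here are 10 genes chosen by symbol from the 28786 gene names of the count table: the 5 enzymes of the cycle (CPS1, OTC, ASS1, ASL and ARG1), the enzyme that makes its activator (NAGS), 2 mitochondrial carriers (SLC25A15 and SLC25A13) and 2 enzymes that release ammonia (GLS2 and GLUD1). All 10 were in the table, and all 10 were among the 19824 genes tested. They were measured in precision-cut liver slices (PCLS), thin slices of biopsied liver kept alive in culture, from primiparous Jersey cows early after calving. Slices of each cow were kept in William's Medium E for 18 h. The control group received no agonist and is called untreated in the labels. The methods state that treatments were adjusted to 0.8% DMSO, the vehicle, but elsewhere the control is described as medium alone, so each difference from control may include an effect of the vehicle. The other groups received the PPARα agonist WY-14643 at 100 µM, the PPARδ agonist GW-501516 at 50 µM, or the PPARγ agonist rosiglitazone at 100 µM. Each cow and treatment gave 1 library made from slices treated in duplicate, so the 12 libraries of cows 567, 576 and 581 form 4 groups of 3. The 4 libraries of cow 574 were left out of the tests. This cow is absent from the data the study analysed, and the study gives low RNA integrity and an outlying position in a principal component analysis as its grounds for removing an animal. The comparison of interest was whether the agonist of each PPAR isotype changed the transcripts of nitrogen disposal in the liver of the early lactation cow.

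The urea cycle is the liver's route for turning ammonia into urea. It begins in the mitochondrion of the hepatocyte, where CPS1 fixes ammonia as carbamoyl phosphate and OTC joins this to ornithine to give citrulline, and it ends in the cytosol, where ASS1, ASL and ARG1 carry citrulline through argininosuccinate and arginine to urea and ornithine. In ruminants much of this ammonia comes from the rumen, and the liver takes it up from portal blood. PPARα is known in rodents as a receptor whose activation lowers the expression of several amino acid degrading and urea cycle genes.

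The 12 libraries held 3081981 to 10227330 counts in genes, of which the ribosomal gene RN18S1 took 11.9 to 63.8%, and 951 to 5741 counts fell on the 10 genes. Levels are given as CPM, the counts of a gene set to a fixed total per library, scaled by TMM, a normalization that sets the libraries to a common typical gene. The reads come from the 3′ end of transcripts and are not divided by length, so levels were compared between samples and not between genes. The liver label was matched by the defining genes of hepatocytes: the 12 markers summed to 1901 to 11670 CPM, and a marker was at 0 in only 1 library. Several libraries stood apart. WY-14643 in cow 576 held 899 CPM of neutrophil markers, against 7.96 to 27.1 in the other 11 libraries, and 2759 CPM of stellate cell markers, against 126 to 1197. GW-501516 in cow 576 was the library with 63.8% RN18S1 and had only 9993 genes detected. A further 3 libraries (WY-14643 in cows 567 and 581 and GW-501516 in cow 581) carry a mark in their headers whose meaning is not given. These 3 held 6864557 to 8784297 counts outside RN18S1, against 1668896 to 4105894 in the 9 others.

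The only member called in the treatment-only test was found with the PPARα agonist. ASS1, the argininosuccinate synthetase that is commonly held to set the pace of the cytosolic steps, fell to 0.354 of its control level, and CPS1, the entry enzyme of the cycle, stood at 0.293 of control without passing the test used for all genes. By edgeR's quasi-likelihood test with treatment as the only term, 1 of the 10 genes was called lower at the study's cut-off, an adjusted p under 0.2, and none was called higher. Over all genes tested, 0.111% were called lower and 0.535% were called in either direction. With the cow as a block, which compares each slice with the control of its own animal, ASS1 and CPS1 were both called lower. This was 2 of 10, against 2.68% of all genes in either direction. The block changed their standard errors little, from 0.42 to 0.40 for ASS1 and from 0.58 to 0.53 for CPS1. Calls over all genes rose with the block as well, and the reason was not tested. ASS1 and CPS1 were also called by DESeq2 (1.61% of all genes) and had an unadjusted p under 0.05 (7.88%).

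ASS1 (NCBI gene 280726) was measured at 78.1, 98.8 and 97.9 CPM in the control slices of cows 567, 576 and 581. With WY-14643 it stood at 25.3, 28 and 43.8 CPM in the same cows. Every WY-14643 value lay below every control value, and the means were 32.4 ± 9.99 against 91.6 ± 11.7 CPM (SD, n = 3 cows). The log2 fold change was -1.50 (SE 0.42, 95% interval -2.33 to -0.67), with an adjusted p of 0.198 by edgeR, 0.0211 by edgeR with the cow as a block and 0.0237 by DESeq2. The first of these lies just inside the cut-off, and by edgeR it was 0.206 without RN18S1, 0.482 with a stricter filter on low counts (filterByExpr) and 1 with all 16 libraries. The call was lost when any control library was left out (edgeR adjusted p = 0.650 for cow 581, 0.429 for 576 and 0.231 for 567) and without the WY-14643 library of cow 567 (0.680), while the log2 fold change stayed between -1.77 and -1.34 over all 12 libraries left out in turn. In the blocked fits the call was lost only without the WY-14643 library of cow 567 (adjusted p = 0.312 by edgeR).

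CPS1 (NCBI gene 510506) stood at 35.7, 36.3 and 68.8 CPM in the control slices of cows 567, 576 and 581. Under WY-14643 the same cows gave 11.9, 14.7 and 14.6 CPM, again with no overlap between the groups and with a narrow spread (13.7 ± 1.59 CPM against 46.9 ± 19, SD, n = 3). The log2 fold change was -1.77 (SE 0.58), with an adjusted p of 0.322 by edgeR, which did not pass, and of 0.111 with the cow as a block and 0.118 by DESeq2, which did. Of the 12 blocked fits that each left out 1 library, 7 kept the call, and edgeR's adjusted p ranged from 0.00317 to 0.916. Leaving out the GW-501516 library of cow 576, which is not part of this comparison but shares its estimate of the spread, brought the unblocked adjusted p of edgeR to 0.0243, in a fit that called 3.83% of all genes.

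**Figure D1:**
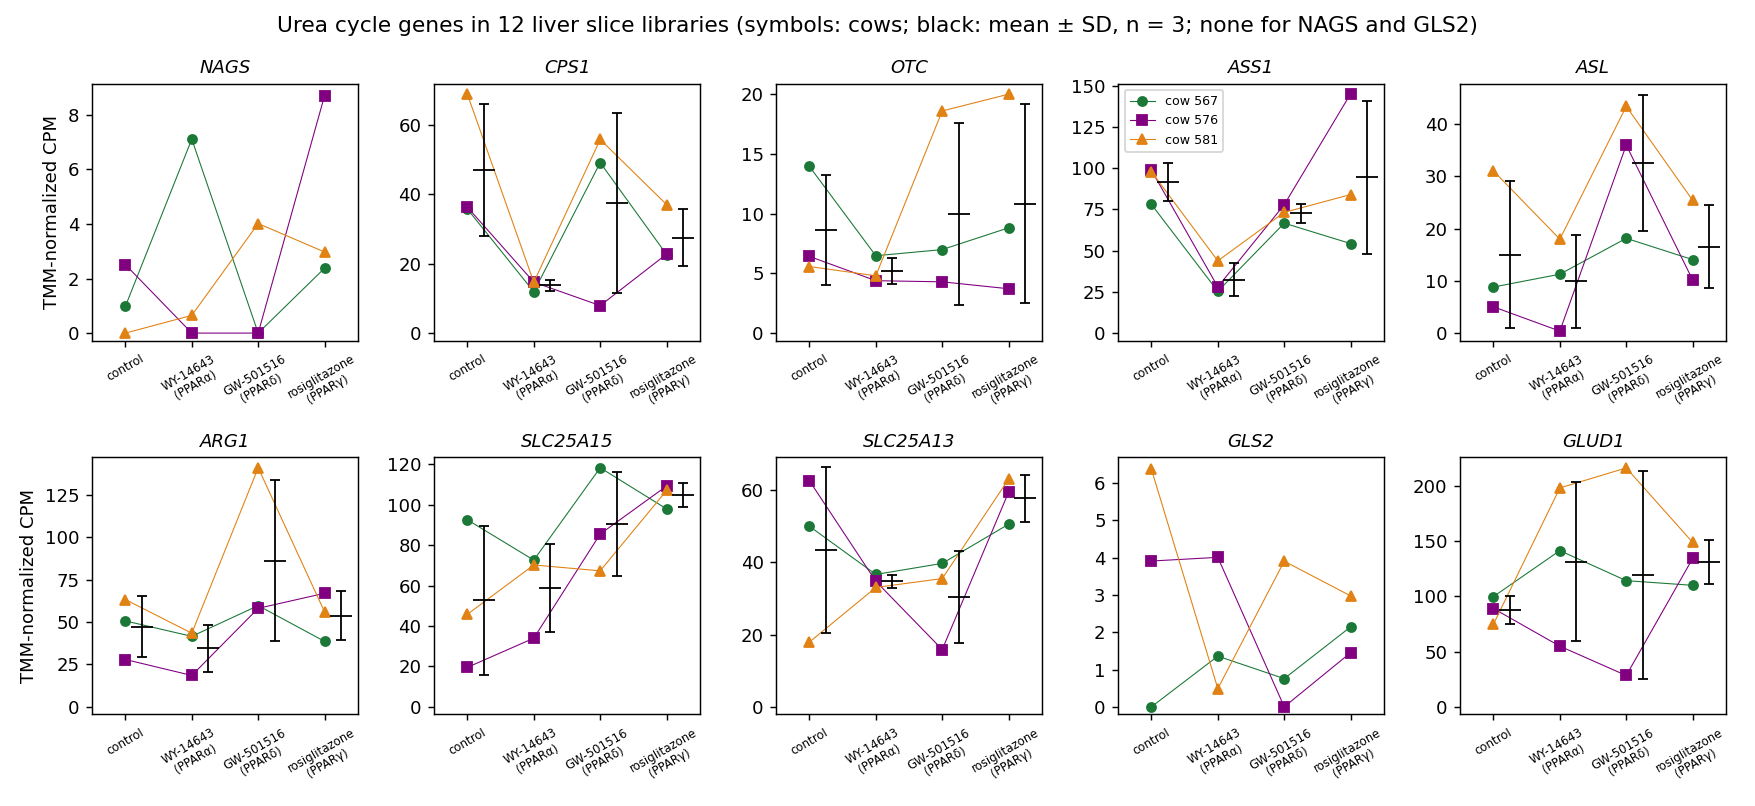
TMM-normalized CPM (vertical axes, linear) of the 10 urea cycle genes in the 12 libraries, by treatment (horizontal axes). Symbols joined by lines are cows 567, 576 and 581, and black marks are the mean ± SD of 3 cows (not drawn for NAGS and GLS2, which were at 0 in some libraries). All 3 WY-14643 values of ASS1 (25.3 to 43.8 CPM) and of CPS1 (11.9 to 14.7 CPM) lie below the control values.

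The other steps of the cycle differed less from control with WY-14643, and none passed. ARG1, the arginase that releases urea (NCBI gene 513608), was lower than its own control in each of the 3 cows, at 41.6, 18.5 and 43.4 CPM against 50.7, 27.9 and 63.3, but the groups overlapped and the change did not pass (log2 fold change -0.45, SE 0.47, adjusted p = 0.799 by edgeR). OTC (NCBI gene 280887), which makes citrulline, was also lower in each cow, at 6.47, 4.39 and 4.80 CPM against 13.9, 6.42 and 5.57, a difference of -0.73 on the log2 scale with an SE of 0.91. ASL (NCBI gene 512771), which splits argininosuccinate, went both ways. It stood at 11.3, 0.381 and 18.0 CPM with WY-14643 against 8.81, 5.02 and 31 in control, the value of 0.381 being only 2 counts. Thus CPS1, OTC, ASS1 and ARG1 were below the cow's own control in 3 of 3 cows, and 4 of 10 genes kept to 1 side in this way against 28.8% of all genes (10.4% lower). For 2 of 10 the groups did not overlap, against 14.1% of all genes (4.73% lower). The 5 cycle enzymes summed to 187, 174 and 267 CPM in the control slices of cows 567, 576 and 581 and to 96.5, 66.0 and 125 CPM with WY-14643.

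Members outside the cycle proper did not share this pattern under the PPARα agonist. GLUD1 (NCBI gene 281785), the glutamate dehydrogenase that releases ammonia from glutamate, stood at 141, 54.9 and 198 CPM against 99.8, 89.0 and 74.8 in control, higher in 2 cows and lower in cow 576. Its log2 fold change of 0.58 (SE 0.47) did not pass, but without cow 576 it was 0.95 with an adjusted p of 0.0879 by edgeR, in a fit that also called ASS1 and CPS1 lower. That fit called 15.7% of all genes, against 0.535% with all 3 cows. SLC25A15 (NCBI gene 532560), which exchanges ornithine for citrulline across the inner mitochondrial membrane, had a log2 fold change of 0.16 (SE 0.45). SLC25A13 (NCBI gene 615470), the aspartate and glutamate carrier citrin that feeds aspartate to ASS1, had one of -0.32 (SE 0.49). The median log2 fold change of the 10 genes was -0.51, against 0.12 over all genes tested.

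Depth, the marked libraries and cell type markers were set beside these values. The unmarked WY-14643 library, that of cow 576, gave 28 CPM of ASS1 against 98.8 in its own control. It is also the library with high neutrophil and stellate cell markers. The 2 marked WY-14643 libraries gave 25.3 CPM against 78.1 and 43.8 against 97.9. No control library was marked, so in cows 567 and 581 the mark and its depth cannot be told apart from WY-14643. The marked GW-501516 library gave 73.2 CPM. Without the 3 marked libraries the log2 fold change of ASS1 was -1.66, and 0 of the 10 genes were called (adjusted p = 0.667 by edgeR, with 1 WY-14643 library left and assumed to vary like the other groups). None of the hepatocyte markers was called lower with ASS1, and 2 of 12 were called higher with WY-14643, against 0.424% of all genes. Their sum was 5919, 2331 and 3309 CPM in the control slices of cows 567, 576 and 581. With WY-14643 the sum was 11670, 1901 and 9989 CPM. ASS1 came to less of this sum with WY-14643 in all 3 cows, by -2.60, -1.52 and -2.75 on the log2 scale against the same cow's control, and CPS1 by -2.56, -1.01 and -3.83. The Kupffer cell markers, which mark the macrophages of the liver, summed to 347, 279 and 792 CPM in control and to 214, 279 and 340 with WY-14643. Endothelial markers summed to 432, 592 and 644 CPM in control and to 200, 506 and 292 with WY-14643, and lymphocyte markers to 67.8, 60.6 and 70.0 against 28.9, 49.4 and 21.8, so both were below the own control in 3 of 3 cows. The part of these cell types in the values of ASS1 and CPS1 was not tested. In slices of whole tissue, fewer cells of a type and less RNA per cell cannot be told apart.

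**Figure D2:**
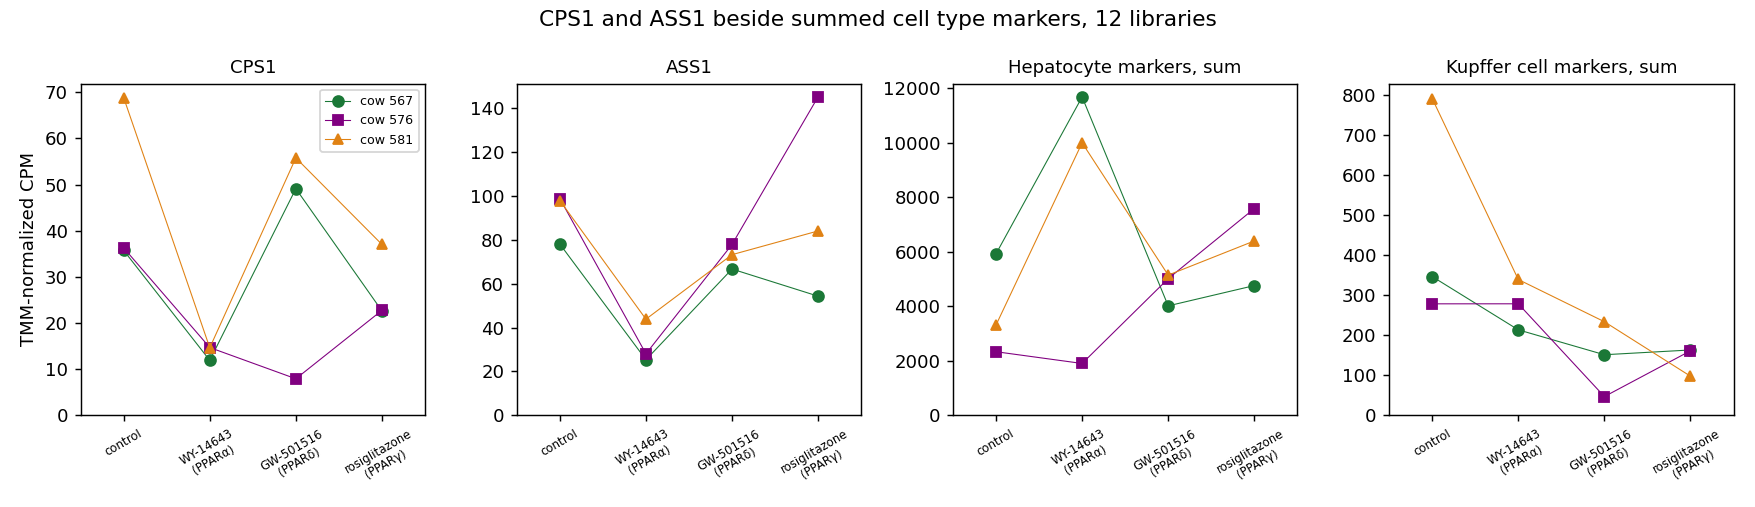
TMM-normalized CPM (vertical axes, linear, from 0) of CPS1, ASS1, the sum of 12 hepatocyte markers and the sum of 8 Kupffer cell markers, by treatment, with symbols for cows 567, 576 and 581. With WY-14643, CPS1 and ASS1 are low in all 3 cows while the hepatocyte sum is 11670, 1901 and 9989 CPM.

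With the PPARδ agonist, 0 of the 10 genes were called in either direction, against 0.308% of all genes. The count was also 0 with the cow as a block (2.03% of all genes), by DESeq2 (2.63%) and at an unadjusted p under 0.05 (7.82%). By size the pattern was mixed. ARG1 stood at 59.7, 58.1 and 141 CPM in cows 567, 576 and 581 against 50.7, 27.9 and 63.3 in control, higher in each cow, with a log2 fold change of 0.87 (SE 0.47) and an adjusted p of 0.651 by edgeR. ASL stood at 18.1, 36.0 and 43.4 CPM against 8.81, 5.02 and 31, also higher in each cow (1.13, SE 0.78, adjusted p = 0.668). SLC25A15 was the third gene higher in 3 of 3 cows, at 118, 85.5 and 67.3 CPM against 92.5, 19.5 and 45.8 (0.78, SE 0.45). ASS1 was the only gene lower in each cow, at 66.7, 77.9 and 73.2 CPM, and its values did not overlap with control although the difference was small (-0.33, SE 0.42). In all, 4 of 10 genes lay on 1 side of the cow's own control in all cows, against 19.7% of all genes, and 1 of 10 did not overlap, against 9.36%.

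CPS1 with GW-501516 varied between animals: it stood at 49.1 and 55.8 CPM in cows 567 and 581 and at 7.92 CPM in cow 576, the library rich in RN18S1. In that library GLUD1 (28.4 CPM) and SLC25A13 (15.8 CPM) were also the lowest of all 12. OTC stood at 6.99, 4.29 and 18.6 CPM against 13.9, 6.42 and 5.57. The 5 cycle enzymes together came to 201, 184 and 332 CPM in cows 567, 576 and 581, each above the cow's own control. The median log2 fold change of the 10 genes was 0.22, against 0.00 over all genes. The Kupffer cell markers summed to 151, 46.9 and 234 CPM in cows 567, 576 and 581, below the control of each cow. Endothelial markers (373, 432 and 328 CPM) and lymphocyte markers (25.3, 16.2 and 26.4 CPM) were also below it in 3 of 3 cows. Hepatocyte markers summed to 4012, 5009 and 5139 CPM, above the own control in cows 576 and 581 only. The part of these cell types was not tested.

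With the PPARγ agonist, 0 of the 10 genes were called without the block, against 0.631% of all genes. At an unadjusted p under 0.05 there was 1, SLC25A15 (6.79% of all genes), and by DESeq2 there was none (1.87%). With the cow as a block, 1 of 10 was called, against 2.86% of all genes. That gene was again SLC25A15, the ornithine carrier. It stood at 97.9, 109 and 107 CPM in cows 567, 576 and 581 against 92.5, 19.5 and 45.8 in control. The rosiglitazone values were close together and above all controls, so the size of the change followed the control of each cow, from almost none in cow 567 to the largest in cow 576. The log2 fold change was 0.99 (SE 0.45, adjusted p = 0.707 by edgeR) and 1.21 (SE 0.40, adjusted p = 0.122) with the block. The blocked call was kept in 8 of 12 fits that left out 1 library, and was lost without the control or the rosiglitazone library of cow 581 (adjusted p = 0.423 and 0.465 by edgeR) or of cow 576 (0.682 and 1).

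GLUD1 also lay above all controls with rosiglitazone, at 110.0, 134 and 149 CPM against 99.8, 89.0 and 74.8, but did not pass (log2 fold change 0.58, SE 0.47, adjusted p = 0.794 by edgeR). CPS1 was lower than its own control in 3 of 3 cows, at 22.6, 22.7 and 37.0 CPM, a change of -0.77 (SE 0.56, adjusted p = 0.754). ASS1 did not share this: at 54.3, 145 and 84.0 CPM it was lower in 2 cows and higher in cow 576, with a log2 fold change of 0.05 (SE 0.41, 95% interval -0.77 to 0.86). ARG1 (38.6, 67.0 and 55.9 CPM), ASL (14.1, 10.2 and 25.4 CPM) and SLC25A13 (50.5, 59.4 and 63.0 CPM) overlapped with control. OTC stood at 8.81, 3.71 and 20.0 CPM, above its own control in cow 581 only. Counting NAGS, 4 of 10 genes lay on 1 side in all cows, against 27.4% of all genes, and 2 of 10 did not overlap, against 14.7%. The median log2 fold change was 0.25, against 0.08 over all genes. Beside these values the hepatocyte markers summed to 4755, 7579 and 6391 CPM and the Kupffer cell markers to 163, 161 and 97.8. Endothelial markers (226, 222 and 157 CPM), stellate cell markers (127, 219 and 126 CPM) and lymphocyte markers (15.2, 16.1 and 11.6 CPM) lay below every control. The part of these cell types was not tested.

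**Figure D3:**
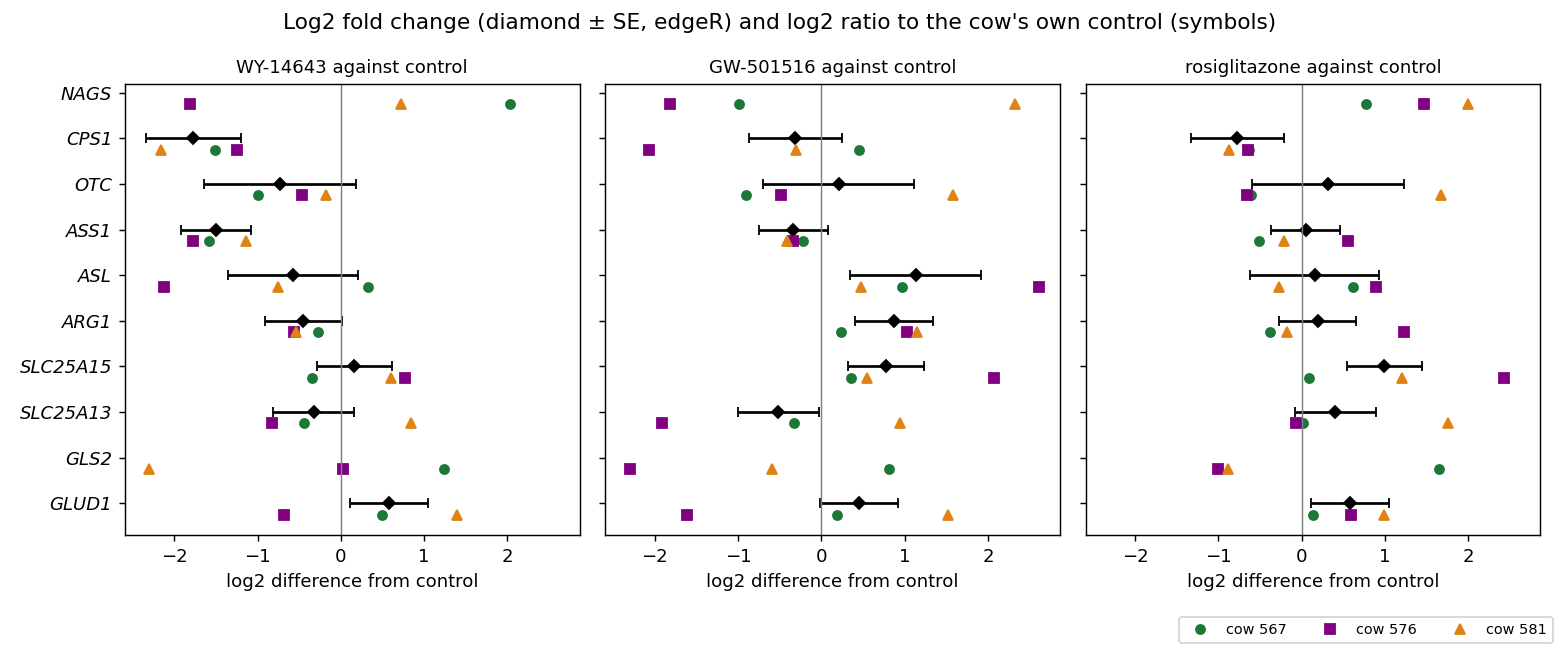
Log2 difference from control (horizontal axes) of each urea cycle gene with WY-14643, GW-501516 and rosiglitazone. Black diamonds with bars are edgeR log2 fold changes ± SE (not drawn for NAGS and GLS2), and symbols are log2 ratios of CPM + 1 to the control of the same cow. ASS1 (-1.50) and CPS1 (-1.77) lie farthest to the left with WY-14643, and SLC25A15 (0.99) lies to the right with rosiglitazone.

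NAGS and GLS2 were close to the limit of detection. NAGS (NCBI gene 538004), the synthase of N-acetylglutamate, without which CPS1 is inactive, had 0 to 89 counts per library, and 0 counts in the control of cow 581, in WY-14643 of cow 576 and in GW-501516 of cows 567 and 576. A count of 0 allowed up to 0.567 to 1.19 CPM in these libraries, by a limit of 3 counts that covers counting error only. With rosiglitazone NAGS stood at 2.38, 8.71 and 2.97 CPM in cows 567, 576 and 581, against 0.979, 2.51 and 0 in control, and the log2 fold change of 1.97 had an SE of 1.84. GLS2 (NCBI gene 539561), the liver glutaminase, had 0 to 34 counts per library, and its log2 fold changes against control had standard errors of 1.72 to 1.73. Changes of these genes were not detectable at this depth unless very large.

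Taking all 9 agonist libraries against the 3 controls, 0 of the 10 genes were called, against 0.651% of all genes. The count was 0 with the block (3.26% of all genes) and by DESeq2 (2.63%) as well, and 1 gene, CPS1, had an unadjusted p under 0.05 (10.7%). Its log2 fold change was -0.95 (SE 0.44, adjusted p = 0.414 by edgeR). Without cow 576, CPS1 (-0.91, adjusted p = 0.113) and GLUD1 (0.82, adjusted p = 0.0952) were both called by edgeR, in a fit that called 14.1% of all genes. The comparisons with control share the same 3 control libraries, so their values are not independent of each other.

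The agonists were also compared with each other. Against WY-14643 at the same dose of 100 µM, rosiglitazone left ASS1 higher by 1.54 on the log2 scale (SE 0.42) and higher in 3 of 3 cows. Its adjusted p was 0.207 by edgeR, outside the cut-off, 0.0367 with the cow as a block and 0.0208 by DESeq2. So 0 of 10 genes were called without the block, against 0.338% of all genes, and 1 of 10 with it, against 1.27%. By DESeq2 the 1 gene stood against 0.671%, and at an unadjusted p under 0.05 against 4.36%. For CPS1 the same comparison gave 1.00 (SE 0.57, adjusted p = 0.979). GW-501516, at 50 µM, is set beside WY-14643 at 100 µM with the doses differing. Here 0 of 10 genes were called, against 0.156% of all genes, while CPS1, ASS1, ASL and ARG1 had an unadjusted p under 0.05, 4 of 10 against 5.27% of all genes. By DESeq2 1 of 10, ASS1, was called (adjusted p = 0.193), against 0.676%, and with the block none was, against 1.16%. Between rosiglitazone and GW-501516, 0 of 10 were called by edgeR (0.0757% of all genes), with the block (0.570%) or by DESeq2 (0.414%), and none had an unadjusted p under 0.05 (3.97%).

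Genes that work beside the cycle were described from lists. Of 25 genes of glutamine, glutamate and arginine metabolism and nitrogen transport, 24 were tested. None was called with any agonist or with all 3 together without the block, against 0.308 to 0.651% of all genes. Asparagine synthetase, ASNS, which passes nitrogen from glutamine to aspartate, was higher in all 3 cows with GW-501516, at 60.4, 287 and 74.0 CPM against 43.8, 34.9 and 53.7. Its log2 fold change of 1.67 (SE 0.48) was not called by edgeR (adjusted p = 0.261) and was called with the block (0.0402). SLC7A2, a carrier of arginine and other cationic amino acids, was called higher with rosiglitazone only in the blocked fit (adjusted p = 0.0508 against 0.744 without it, by edgeR, with 0.86 on the log2 scale). The alanine aminotransferase GPT had 0 counts in all 3 control libraries and at most 61 in any other.

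Among 10 regulators of hepatocyte genes, 9 were tested and 1 was called, with rosiglitazone, against 0.631% of all genes. ONECUT1, a transcription factor of liver development also known as HNF6, stood at 25.7, 37.4 and 26.8 CPM with rosiglitazone in cows 567, 576 and 581 against 7.59, 3.91 and 2.39 in control, a rise of 2.67 on the log2 scale (SE 0.75, adjusted p = 0.175 by edgeR and 0.0261 with the block). GCGR is the receptor of glucagon, a hormone known to raise urea cycle enzymes. It was higher in each cow with each agonist, against 2.74% of all genes higher in 9 of 9 pairs. It stood at 41.0, 84.4 and 41.1 CPM with rosiglitazone against 28.6, 12.3 and 15.1 in control (1.57, SE 0.55), and was called only with the block (adjusted p = 0.0573 by edgeR against 0.453). CEBPB had at most 13 counts in any library.

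In the liver lobule the urea cycle is strongest around the portal vein, where gluconeogenesis also lies. Of 9 periportal genes, 8 were tested. Without the block 1 of 8 was called higher with GW-501516, against 0.308% of all genes in either direction. The count was the same with all 3 agonists together (0.651%), and none was called lower. The median log2 fold change of the 8 was 0.31 with WY-14643, 1.16 with GW-501516 and 0.77 with rosiglitazone. Over all genes it was 0.12, 0.00 and 0.08. SDS, a dehydratase that releases ammonia from serine, stood at 20.2, 47.9 and 19.7 CPM with rosiglitazone and 16.6, 35.3 and 42.9 with GW-501516 against 65.1, 92.9 and 127 in control. Both differences (-1.69, SE 0.56, and -1.58, SE 0.56) passed only with the block (adjusted p = 0.000976 and 0.00640 by edgeR). HAL, which releases ammonia from histidine, had a control of 1.96, 1.40 and 1.59 CPM and stood at 11.9, 11.0 and 17.6 with rosiglitazone (3.01, SE 1.15, adjusted p = 0.542). With WY-14643 none of the 8 periportal genes was called lower, against 0.111% of all genes.

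At the opposite, perivenous end of the lobule, glutamine synthetase (GLUL) takes up ammonia that escapes the cycle. Of 10 perivenous genes 9 were tested, and none was called without the block, against 0.308 to 0.651% of all genes. CYP2E1, a cytochrome of drug and ketone metabolism, was called higher with rosiglitazone in the blocked fit (1.55 on the log2 scale, SE 0.55, adjusted p = 0.000308 against 0.454 by edgeR). It stood at 131, 203 and 161 CPM against 78.1, 22.6 and 68.0. CYP1A2, an arylamine-oxidizing cytochrome, had 0 to 26.2 CPM, and SLC1A2, a glutamate carrier, 0 to 19 CPM. For these and for GLUL itself (-0.50 to 0.18 on the log2 scale over the agonists) no change passed.

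**Figure D4:**
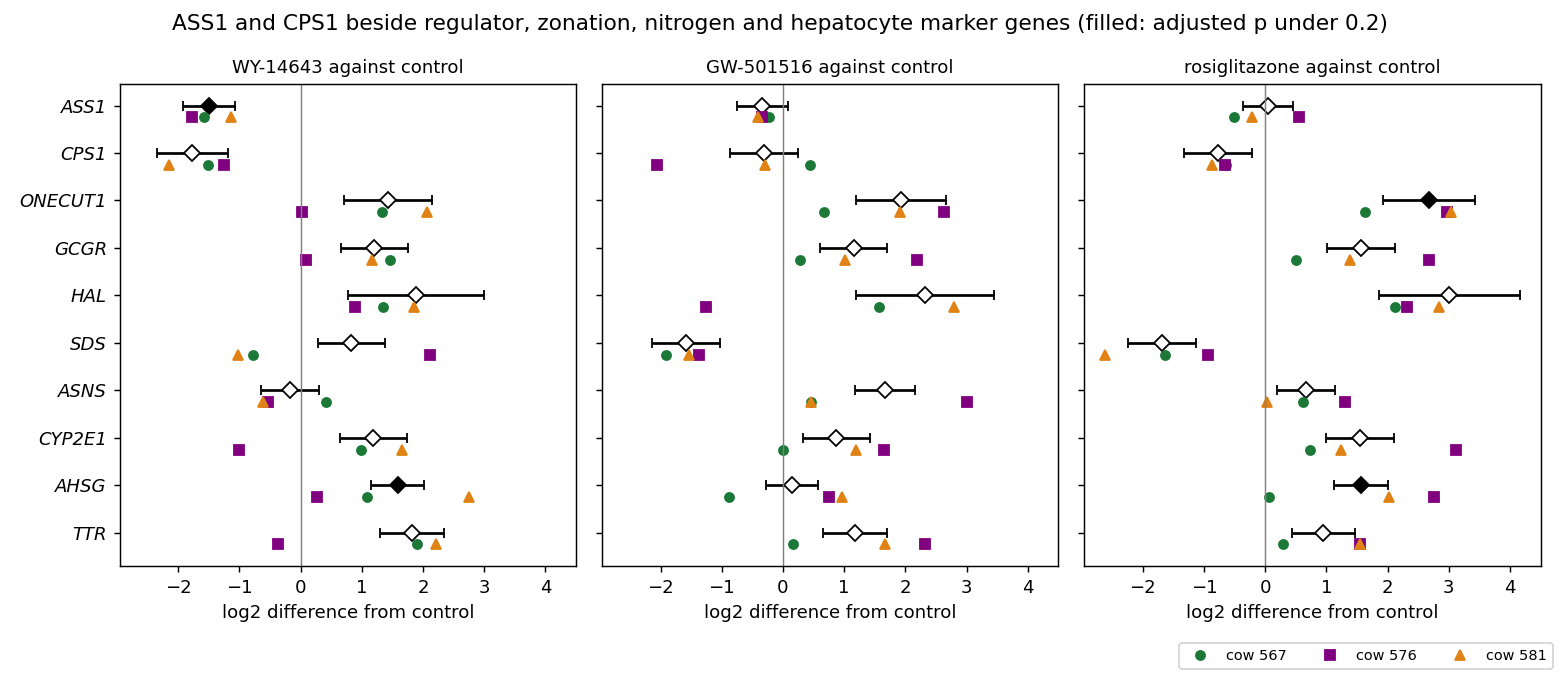
Log2 difference from control (horizontal axes) of ASS1 and CPS1 beside regulators (ONECUT1, GCGR), periportal genes (HAL, SDS), nitrogen metabolism (ASNS), a perivenous gene (CYP2E1) and hepatocyte markers (AHSG, TTR). Diamonds with bars are edgeR log2 fold changes ± SE, filled where the adjusted p is under 0.2, and symbols are log2 ratios of CPM + 1 to the control of the same cow. With WY-14643, ASS1 lies at -1.50 and the hepatocyte marker AHSG at 1.59, both filled.

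The members varied together only in part. Across the 12 libraries, which share cows and differ in depth, log2 CPM of ARG1 and ASL had a Pearson r of 0.83, CPS1 and ASS1 one of 0.51, and OTC and ASS1 one of 0.11. The 5 genes outside the list whose pattern was most like the mean of the 5 cycle enzymes over the same 12 libraries were CSKMT (r = 0.90), ADAMTS1 (0.87), SPRY2 (0.84), HGD (0.84) and JUN (0.84). These correlations are a description and carry no test.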

How the data were processed

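RNA from PCLS of 4 cows and 4 treatments gave 16 libraries, prepared by the authors with the QuantSeq 3′ forward kit. Per the labels and the methods, the authors used Trimmomatic 0.39 for trimming and STAR 2.7.1 for alignment against ARS-UCD1.2 and deposited whole-number counts of reads per gene without normalization. The headers name STAR's gene table with NCBI symbols, whereas the methods name Ensembl annotation and StringTie 2.0. No strand setting was found, so reads of overlapping genes cannot be told apart. Gene IDs came from a RefSeq table. The 4 tallies of reads outside genes (unmapped, multimapping, no feature and ambiguous, being 3.69 to 17.1%, 4.93 to 6.75%, 29.1 to 54.1% and 0.380 to 1.40% of reads in the 12 libraries) were left out.

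Counts were analysed in R 4.3.3 with edgeR 4.0.16 (glmQLFit with the legacy setting, glmQLFTest) and DESeq2 1.42.0. The filter asked for over 4 counts in 1 library or more of the 12, and scaling was by TMM. All 4 groups entered 1 fit with treatment as the only term (the study used DESeq2 and gives no model formula), and p-values were adjusted by Benjamini-Hochberg over all 19824 genes with a cut-off of 0.2. Ratios to a cow's own control are of CPM + 1. Each cow gave all 4 libraries, so the cow pairs them. Deviations from group means correlated between libraries of a cow at 0.066, 0.127 and 0.101 on average in cows 581, 576 and 567, and a fit with the cow as a block was the alternative. The other alternatives were another scaling, other filters on low counts, RN18S1 left out, all 16 libraries, leaving out the marked libraries, each library and each cow, and DESeq2. Fits were also run on simulated data with 200 changed genes. The simulated data held no differences between cows, so they cannot show how the blocked fit handles paired slices. No 2 libraries held identical counts.

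Named were all 10 members, from each list (nitrogen partners, regulators, periportal and perivenous genes) the genes called and the 3 with the smallest p over all agonists together, and the 5 genes most like the cycle enzymes. Some genes that this rule names are not reported here. SLC7A2, GLUL, AHSG and TTR were named after their values were seen. The other marker lists gave 22.3 to 163 CPM (cholangiocyte) and 1.84 to 108 (erythrocyte) per library. Members and lists were chosen with earlier results of these data known.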

Additional observations from a re-analysis of the deposited data

Results flagged for a closer look

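In a check of each gene for a library far from the rest (50 groups tested, chance giving about 1 in 20), 7 values stood out. Over the 9 agonist libraries of cows 567, 576 and 581 these were ASL at 0.381 CPM and SLC25A15 at 34.0 CPM with WY-14643 in cow 576, both the lowest of the 9, and SLC25A13 at 15.8 CPM with GW-501516 in cow 576. The other 4 came from cow 574, the animal left out of the tests. With WY-14643 it held 99.6 CPM of CPS1 against 11.9 to 14.7 in the other cows, 43.7 CPM of OTC against 4.39 to 6.47, and 75.3 CPM of SLC25A13 against 33.0 to 36.6. With GW-501516 it held 233 CPM of ASS1 against 66.7 to 77.9. The control slices of cow 574 were themselves high, at 111 CPM of CPS1, 31.6 of OTC, 81.3 of SLC25A13 and 126 of ASS1. Against that control, WY-14643 differed by -0.15 for CPS1, 0.46 for OTC and -0.11 for SLC25A13 on the log2 scale. The fall of CPS1 seen in the other 3 cows was thus not seen in cow 574.

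ARG1 lay on opposite sides of control with 2 agonists: it was below the cow's own control in 3 of 3 cows with WY-14643 and above it in 3 of 3 with GW-501516. The difference itself was 1.32 on the log2 scale (edgeR adjusted p = 0.672, or 0.227 when blocked by cow, neither past the cut-off), at doses of 50 against 100 µM.

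The agonist slices of cow 574 also held members above 1.5 times the highest of the 4 control libraries. Only higher values were searched for, and the share of all genes above this margin was not counted. With GW-501516 these were CPS1 (182 CPM against at most 111), ASS1 (233 against 126), ARG1 (158 against 72.2), SLC25A13 (123 against 81.3) and NAGS (6.93 against 2.51). With rosiglitazone ASS1 reached 243 CPM, and with WY-14643 NAGS reached 6.48 CPM. These NAGS values were only 9 counts with GW-501516 and 8 with WY-14643. The control and rosiglitazone libraries of cow 574 had 0 counts of NAGS. The 4 libraries of cow 574 held 772012 to 970406 counts in genes, and 79.6 to 84.3% of their reads lay outside annotated genes. In them ASS1 with WY-14643 was close to its own control (121 against 126 CPM). SLC25A15 was below its own control of 91.8 CPM with each agonist. It stood at 58.3 CPM with WY-14643, 74.6 with GW-501516 and 71.7 with rosiglitazone.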

How the results depend on the processing

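Over 40 log2 fold changes of members and 36 alternatives each, 1440 values in all, no called value changed sign, 122 uncalled values did, 11 lost a call and 29 gained one. ASS1 with WY-14643 kept its direction in each alternative and was called in the paired fit with the replicate block (adjusted p = 0.0211 by edgeR), by DESeq2 and with DESeq2-type scaling (0.133), which moved the median of all genes with WY-14643 from 0.12 to 0, but not with edgeR's filterByExpr (0.482), without RN18S1 (0.206) or with all 16 libraries (1, and 0.175 with the replicate block). Members called with WY-14643 numbered 2 with the replicate block, 2 by DESeq2, 2 without a filter, and 0 with filterByExpr, without RN18S1, with all 16 libraries or without the marked libraries. They numbered 0 to 3 when 1 library or cow was left out. With rosiglitazone 1 was called with the replicate block, and 0 to 1 when a library was left out of it. Over all agonists together 0 to 2 were called with a library or cow left out. Members called were 1 by DESeq2 for GW-501516 against WY-14643, and 1 by DESeq2 and 1 with the replicate block for rosiglitazone against WY-14643. Over all genes, WY-14643, GW-501516, rosiglitazone and all agonists together had 106, 61, 125 and 129 calls. These became 532, 402, 567 and 646 with the replicate block, 320, 521, 370 and 522 by DESeq2, 0, 3, 9 and 1 with filterByExpr, 408, 340, 332 and 734 without a filter, and 0 in each with all 16 libraries, where the block gave 203 for all agonists together. Without the marked libraries GW-501516 had 308 and rosiglitazone 461. With 1 library or cow left out the counts ranged from 0 to 3030, 7 to 972, 13 to 1059 and 13 to 2727. The causes of these shifts were not tested. The blocked fits that leave out a library were chosen after seeing the data. The block changed no other member call. With 3 cows and 951 to 5741 member counts a library, changes of NAGS, GLS2 and OTC had the widest errors.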
